A study of Mus musculus with 15 samples.

Results

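The subject here is the effect of deleting STING in endothelial cells of the mouse heart under pressure overload, read as KO TAC libraries against WT TAC libraries over all genes. RNA was sequenced from heart cells collected 4 weeks after surgery and sorted as bearing CD31, a surface protein of endothelium, but not CD45, which marks leukocytes. The 4 KO TAC mice (numbered 351 to 354) were Cad5CreERT2+/+ STINGfl/fl and the 5 WT TAC mice (134 to 138) were Cad5CreERT2-/- STINGfl/fl, so both groups carried loxP-flanked alleles of the STING gene and only KO mice carried the recombinase. These 9 libraries were taken by genotype and surgery out of 15 in all. The other 6, from 3 KO and 3 WT mice, had sham surgery and give the genotype difference once more. Transverse aortic constriction (TAC) narrows the aorta so that the left ventricle pumps against a raised pressure. The Cad5 promoter drives the inducible recombinase in endothelium, and the labels give no inducing drug, sex or age. A control with the recombinase and unfloxed STING was not analysed here, so the presence of the recombinase and the loss of STING cannot be told apart in any difference below. The labels name 1 batch for every library. WT mice were numbered 131 to 138 and KO mice 348 to 354, and the count columns hold all WT libraries before all KO libraries. Processing that went with these numbers or this order cannot be told apart from genotype.

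STING is an adaptor on the endoplasmic reticulum that is switched on by a cyclic dinucleotide, which the enzyme cGAS makes when it meets DNA in the cytosol. Active STING recruits the kinase TBK1, which activates the transcription factor IRF3, and it also feeds NF-kappaB signalling, so that type I interferons, interferon-stimulated genes and inflammatory cytokines are transcribed. Endothelial cells of the heart are mostly capillary cells, which pass fatty acids and gases to the muscle.

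The targeted gene, Tmem173 (STING, chr18:35733678-35740554 on mm10), was lower in every KO TAC library. It had 30.4, 28.1, 19.6 and 29.2 CPM in KO TAC libraries, against 75.6, 73.8, 71.8, 82 and 70.4 CPM in WT TAC libraries. The groups did not overlap (log2 fold change -1.48 ± 0.14, adjusted p = 5.78e-08). The genotype labels and the target's level therefore went the same way in all 9 libraries, while reads remained in KO cells. The labels do not say which exons are floxed, and counts per gene cannot separate cells that kept the gene from transcripts that lost part of it.

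Total counts ran from 7134892 to 12200965 in KO TAC libraries and from 7344720 to 15670319 in WT TAC libraries. Rank correlations of the gene levels were 0.987 to 0.991 within KO TAC, 0.990 to 0.994 within WT TAC and 0.962 to 0.981 between them. The leading principal component of the 9 libraries, with 52.9% of the variance, had all KO TAC libraries on one side and all WT TAC libraries on the other. The sorted cells had the defining endothelial transcripts at high levels: Cdh5, which encodes VE-cadherin, had 4107 ± 168 CPM in KO TAC, against 3948 ± 161 CPM in WT TAC (SD), and Pecam1, which encodes CD31, 2189 ± 56.5 CPM in KO TAC, against 1915 ± 56.9 CPM in WT TAC. Leukocyte transcripts were near 0. The 21 macrophage and monocyte markers summed to 9.61 to 18.8 CPM in KO TAC libraries and 10.1 to 18 CPM in WT TAC libraries, and the 15 T and NK cell markers to at most 2.96 CPM in KO TAC and 2.27 CPM in WT TAC, with Cd3g at 0 in every TAC library. Levels are in CPM, counts scaled to a common library size. They are not adjusted for transcript length, so they are compared between groups and not between genes.

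Of 12471 genes tested, 3715 (29.8%) differed between KO TAC and WT TAC at an adjusted p under 0.05 (edgeR, quasi-likelihood F test, p-values adjusted by Benjamini and Hochberg's method). Of these, 1846 were higher (14.8%) and 1869 lower (15.0%) in KO TAC. Differences of more than 2-fold were mostly rises, in 538 genes (4.31%) against 165 that fell (1.32%). In 3823 genes (30.7%) the levels of the KO TAC libraries did not overlap those of the WT TAC libraries. The median log2 fold change over all genes tested was -0.02. Counts of list members that rose, fell or did not overlap are to be read beside these shares over all genes. Log2 fold changes are given as KO TAC over WT TAC with their SE. A gene is said to rise, fall or change where it passed this test, and the size after such a verb is on the log2 scale. Values per library are given in the order of the mouse numbers.

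**Figure D1:**
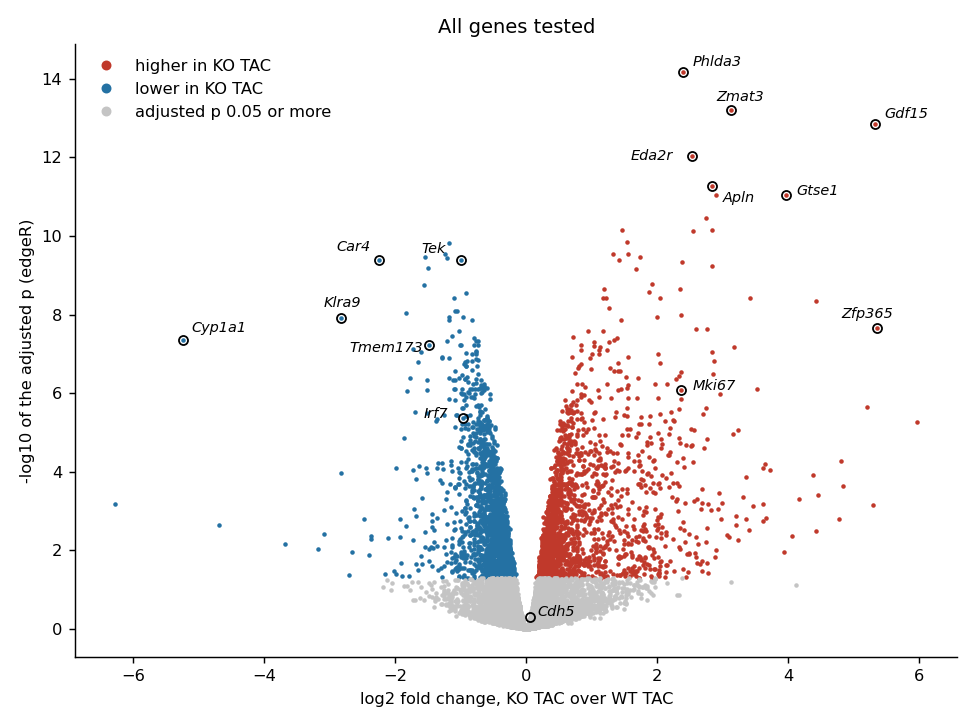
Each point is 1 of the 12471 genes tested, with its log2 fold change (KO TAC over WT TAC) on the horizontal axis and -log10 of the adjusted p on the vertical axis. Circles mark named genes: p53 target genes such as Phlda3, Zmat3 and Gdf15 stand at the top right, Car4, Tek and Tmem173 on the left, and Cdh5 near 0.

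The 4 genes with the smallest p-values, Phlda3, Zmat3, Gdf15 and Eda2r, were targets of p53, the transcription factor that answers DNA damage by arresting the cell cycle or starting cell death. Of 42 listed p53 target and senescence genes tested, 26 rose and 8 fell, against 14.8% of all genes higher and 15.0% lower. Their median log2 fold change was 0.55, and 29 of the 42 did not overlap between the groups, against 30.7% of all genes. Gdf15, a stress cytokine of the TGF-beta family, had 82.7, 51.6, 62.5 and 86.4 CPM in KO TAC libraries, against 1.84, 1.34, 2.33, 1.45 and 1.79 CPM in WT TAC libraries. Every KO TAC library was far above every WT TAC library (log2 fold change 5.33 ± 0.22, adjusted p = 1.4e-13). Zmat3, an RNA-binding protein and p53 target, had 231, 244, 242 and 189.9 CPM in KO TAC libraries, against 25.1, 26.5, 23.9, 30.5 and 22.8 CPM in WT TAC libraries. The change in Zmat3 was 3.13 ± 0.12, adjusted p = 6.09e-14. Phlda3, an inhibitor of the kinase Akt, had 109, 109.9, 109.6 and 103 CPM in KO TAC libraries, against 20.1, 21.1, 20.8, 20 and 20.6 CPM in WT TAC libraries. Phlda3 rose by 2.40 ± 0.08, adjusted p = 6.63e-15. Its libraries were tight within each group and far apart between them.

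Eda2r and other genes of that list rose as well. Only RNA was measured here, and p53 activity was not tested. The receptor gene Eda2r rose by 2.53 ± 0.11 to 195 ± 8.02 CPM in KO TAC, against 33.5 ± 5.56 CPM in WT TAC, and Sesn2, a sestrin that restrains the growth kinase mTORC1, rose by 2.89 ± 0.15. Gtse1, a G2 and S phase protein that binds p53, had 32.1, 37.5, 38.2 and 26.8 CPM in KO TAC libraries, against 1.71, 2.87, 2.33, 1.73 and 2.06 CPM in WT TAC libraries. The change in Gtse1 was 3.96 ± 0.21, adjusted p = 9.05e-12. Cdkn1a, which encodes the kinase inhibitor p21, had 741, 698, 694 and 764 CPM in KO TAC libraries, against 159.8, 194, 322, 176 and 395 CPM in WT TAC libraries. Cdkn1a rose by 1.54 ± 0.19, adjusted p = 3.72e-06. The WT TAC libraries varied widely, but all were below all KO TAC libraries. Mdm2, the ligase that degrades p53, had 151, 134, 151 and 164 CPM in KO TAC libraries, against 64, 67.6, 63.4, 67.2 and 65.6 CPM in WT TAC libraries. Mdm2 rose by 1.19 ± 0.09, adjusted p = 2.24e-09, and the cyclin gene Ccng1 rose by 1.42 ± 0.10.

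Among genes of cell death, Bax, which permeabilises mitochondria, had 124, 128, 119 and 134 CPM in KO TAC libraries, against 45.8, 37.8, 48.4, 48.1 and 47.8 CPM in WT TAC libraries. The change in Bax was 1.47 ± 0.09, adjusted p = 6.91e-11, and its relatives in the pathway Pmaip1 (Noxa) and Bbc3 (Puma) rose by 3.36 ± 0.75 and 0.87 ± 0.14. Pmaip1 was close to the limit of detection in WT TAC, with 29 to 63 counts per library in KO TAC and 2 to 13 in WT TAC. The nuclease gene Aen rose by 2.04 ± 0.16 and Trp53inp1 by 1.74 ± 0.11, whereas Trp53 itself, which encodes p53, rose by 0.42 ± 0.09 (86.5 ± 7.01 CPM in KO TAC, against 64.8 ± 6.06 CPM in WT TAC). Pvt1, a long noncoding RNA next to Myc, had 23.5, 28.6, 40.6 and 21.2 CPM in KO TAC libraries, against 0.633, 1.87, 1.43, 0.636 and 2.34 CPM in WT TAC libraries. Pvt1 rose by 4.42 ± 0.34, adjusted p = 4.55e-09, and Myc, a driver of cell growth, rose by 1.40 ± 0.31. Zfp365, which has been tied to telomere and genome stability, had 143 to 301 counts in KO TAC libraries and 3 to 16 in WT TAC libraries. Scaled to the summed library totals, its summed count was 41.9 times higher in KO TAC (95% exact interval 30.2 to 59.9, covering counting error only).

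The 8 members of the list that fell included Cdkn1b, which encodes the kinase inhibitor p27, with 68.9, 79.4, 66.4 and 81.6 CPM in KO TAC libraries, against 123, 120.4, 130.2, 122 and 131 CPM in WT TAC libraries. The change in Cdkn1b was -0.76 ± 0.07, adjusted p = 1.31e-07. Sesn1, a relative of Sesn2, fell by 0.66 ± 0.10 on the log2 scale, and the death receptor gene Fas, with 26.5, 24.6, 29.5 and 46.8 CPM in KO TAC libraries, against 50.3, 45, 56.4, 56.2 and 63.1 CPM in WT TAC libraries, fell by 0.78 ± 0.17. The Fas level of KO TAC 354 lay within the WT TAC range. Without KO TAC 353, 5 members fell in place of 8. Igfbp3, which binds insulin-like growth factors, fell to 347 ± 35 CPM in KO TAC, against 665 ± 115 CPM in WT TAC.

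p53 binds DNA at pairs of near-palindromic decamers, and promoters of the risen genes are shown with the match to this element in capitals. A RefSeq promoter, running from 250 bases before to 50 after the gene start on GRCm38.p6, was matched by symbol for 8843 of the 12471 genes tested. The 20-letter p53 element (known by that name, both strands, at most 2 mismatches, with the C and G of each decamer kept) was found in 41 of these 8843 promoters (0.464%), in 12 of 1295 genes higher in KO TAC (0.927%), in 6 of 1344 lower (0.446%) and in 4 of 31 listed p53 genes (12.9%). Those 4 were Cdkn1a, Ccng1, Gtse1 and Ckap2, a spindle protein that rose by 2.86 ± 0.28. Zfp365 was 1 of several risen genes outside the list that also held a match. Rps27l, another of them, is not shown, though its match differed from the element by 1 letter. The windows below give the element with 20 bases on either side, on the strand of the gene; a match is a description of letters and not a site shown to be bound.
Cdkn1a (chr17:29090908-29090967, plus strand): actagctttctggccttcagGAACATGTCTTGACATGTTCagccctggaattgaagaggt
Ccng1 (chr11:40755442-40755501, minus strand): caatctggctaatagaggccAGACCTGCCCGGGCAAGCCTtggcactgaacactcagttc
Gtse1 (chr15:85859925-85859984, plus strand): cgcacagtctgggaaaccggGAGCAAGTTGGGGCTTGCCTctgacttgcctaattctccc
Ckap2 (chr8:22185983-22186042, minus strand): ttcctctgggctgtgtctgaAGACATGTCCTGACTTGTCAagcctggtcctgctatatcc
Zfp365 (chr10:67912686-67912745, minus strand): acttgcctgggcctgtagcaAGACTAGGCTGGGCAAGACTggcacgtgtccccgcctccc
The Cdkn1a, Ccng1 and Gtse1 matches each differed from the element by 1 letter, and those of Ckap2 and Zfp365 by 2. The Gtse1 match began 1 base before the gene start, and the Cdkn1a match 51 bases before it.

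**Figure D2:**
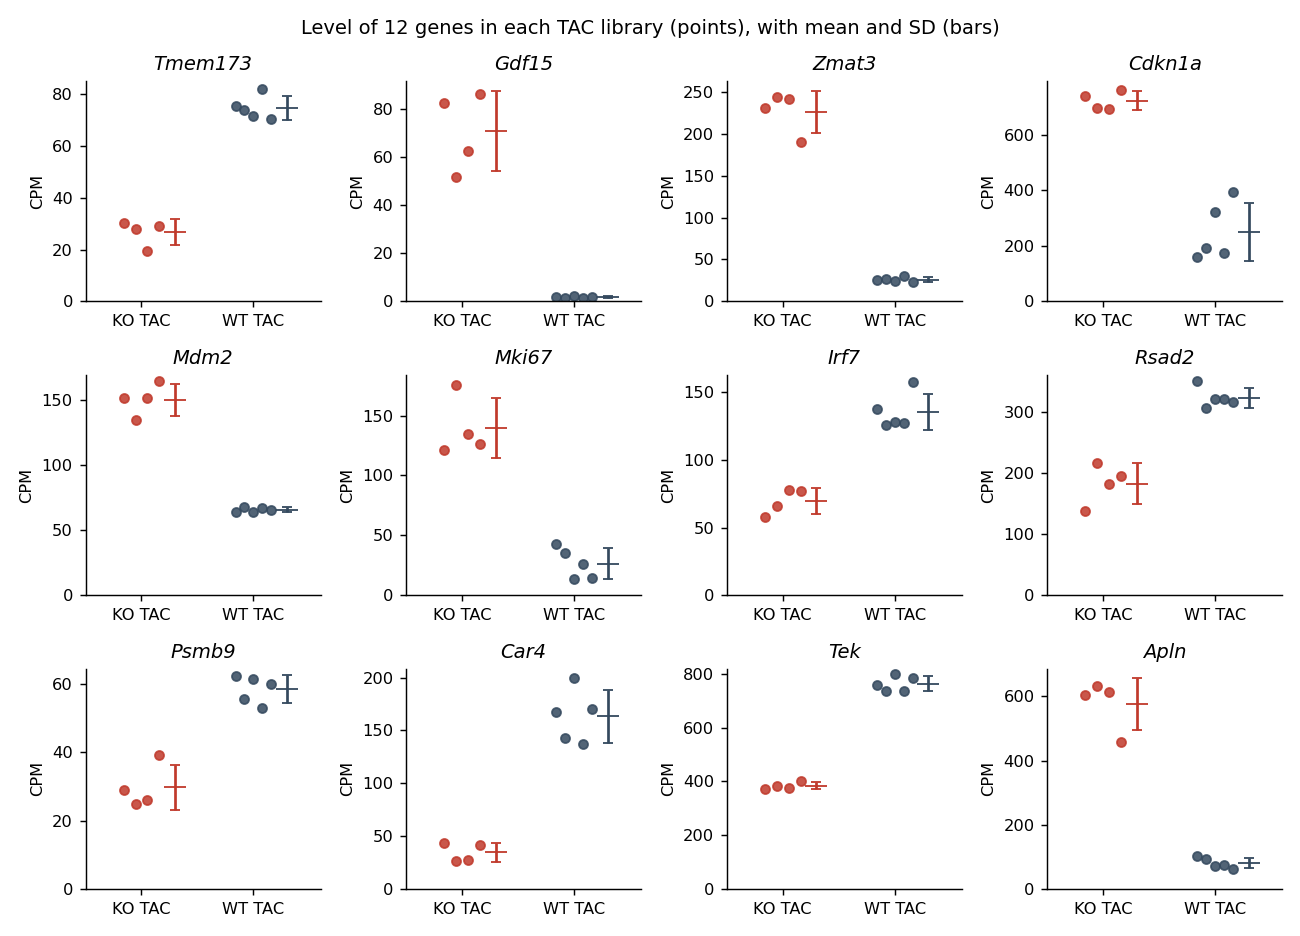
Points give the level in CPM of 12 genes in each of the 4 KO TAC and 5 WT TAC libraries, with the mean and SD beside them; each vertical axis starts at 0. In all 12 genes the points of the groups do not overlap: Gdf15, Zmat3, Cdkn1a, Mdm2, Mki67 and Apln are higher in KO TAC, and Tmem173, Irf7, Rsad2, Psmb9, Car4 and Tek are lower.

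Genes of mitosis rose almost as a whole. Of 35 tested, 34 rose and none fell. Their median was 1.87, and Kif4 was the only one that did not pass (0.47 ± 0.23, adjusted p = 0.129). Mki67, the marker of cycling cells, had 121, 176, 135 and 126 CPM in KO TAC libraries, against 42.9, 35.3, 13.2, 26.4 and 14.2 CPM in WT TAC libraries. Mki67 rose by 2.37 ± 0.27, adjusted p = 8.09e-07. Top2a, a topoisomerase that untangles chromosomes, averaged 61.3 ± 12.9 CPM in KO TAC, against 14.5 ± 6.14 CPM in WT TAC (2.05 ± 0.25). The spindle kinase gene Plk1 rose by 2.34 ± 0.33, the checkpoint kinase gene Bub1 by 2.41 ± 0.39, cyclin B1 (Ccnb1) by 2.05 ± 0.37, and the cytokinesis genes Anln and Prc1 by 2.37 ± 0.28 and 2.29 ± 0.24. In bulk RNA more cells of a kind and more RNA per cell cannot be told apart, here and in every result that follows.

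The rise was narrower in DNA replication, where 16 of 38 genes rose and none fell, with a median of 0.43. Ccnd1, the cyclin that starts G1 progression and is not in that list, had 1132, 1323, 1156 and 1134 CPM in KO TAC libraries, against 477, 421, 376, 352 and 395 CPM in WT TAC libraries. The change in Ccnd1 was 1.55 ± 0.10, adjusted p = 2.95e-10. Pole, the catalytic subunit of the leading-strand polymerase, had 15.2, 24.3, 21.6 and 15 CPM in KO TAC libraries, against 4.31, 2.47, 2.78, 1.73 and 1.65 CPM in WT TAC libraries. The change in Pole was 2.83 ± 0.27, adjusted p = 8.72e-08, and Rrm2, a subunit of ribonucleotide reductase, averaged 14.3 ± 1.4 CPM in KO TAC, against 5.24 ± 0.778 CPM in WT TAC (1.45 ± 0.21). The helicase gene Mcm2 rose by 1.06 ± 0.18 and Uhrf1, which maintains DNA methylation, by 1.84 ± 0.27. The polymerase clamp Pcna, with 66.6 ± 10.9 CPM in KO TAC, against 61 ± 3.67 CPM in WT TAC, gave 0.12 ± 0.11 and did not pass the test (adjusted p = 0.457). With an offset for exon length in each library, Pcna gave 0.33 and passed (adjusted p = 0.0314).

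Of 35 genes of DNA damage signalling and repair, 10 rose and 2 fell, with a median of 0.26. The shares over all genes tested were 14.8% and 15.0%. Those that rose included the checkpoint kinase gene Chek1 (2.02 ± 0.44), the homologous recombination gene Brca1 (2.07 ± 0.35), the Fanconi anaemia gene Fanca (2.23 ± 0.43) and Prkdc, the catalytic subunit of the DNA-dependent kinase (55.8, 57.6, 68.4 and 53.6 CPM in KO TAC libraries, against 37.4, 47.5, 33.8, 33 and 38.6 CPM in WT TAC libraries; 0.63 ± 0.11). With the exon length offset Prkdc gave 0.29 (adjusted p = 0.0475). Brca1 was low in both groups, with 8.8 ± 2.85 CPM in KO TAC, against 2 ± 1.24 CPM in WT TAC. Polk, a translesion polymerase gene counted among the p53 targets, rose by 1.11 ± 0.10 (90.5 ± 6.74 CPM in KO TAC, against 42.2 ± 4.05 CPM in WT TAC).

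Genes of the cGAS-STING pathway other than Tmem173 changed unevenly. Of 32 tested, 2 rose and 9 fell, Tmem173 included, and the median log2 fold change was -0.17. Over all genes tested, 14.8% rose and 15.0% fell. The cGAS gene had no matching symbol among the genes counted, and the interferon gene Ifnb1 was not among those tested. Irf7, the interferon-induced factor that amplifies the interferon response, had 57.7, 65.9, 77.5 and 77 CPM in KO TAC libraries, against 138, 126, 128, 127 and 158 CPM in WT TAC libraries. Irf7 fell by 0.96 ± 0.12, adjusted p = 4.19e-06. Samhd1, which breaks down nucleotides and limits self-DNA sensing, had 89.4, 98.2, 102 and 107 CPM in KO TAC libraries, against 158, 146, 123, 138 and 154 CPM in WT TAC libraries. The change in Samhd1 was -0.54 ± 0.09, adjusted p = 5.73e-05. The interferon regulatory factor gene Irf1 fell by 0.55 ± 0.12, with the level of KO TAC 354 (231) above that of WT TAC 137 (219).

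The kinase and the transcription factor directly below STING did not pass the test. Tbk1 had 0.07 ± 0.08 (adjusted p = 0.544) and Irf3 -0.17 ± 0.11 (adjusted p = 0.265). The DNase gene Trex1 gave -0.32 ± 0.21 (adjusted p = 0.264). The 2 members that rose were Ikbke, a kinase related to TBK1, and Nlrc3, an inhibitor of STING signalling. Ikbke had 3.59, 3.82, 4.81 and 1.28 CPM in KO TAC libraries, against 0.443, 0.602, 0.526, 0.636 and 0.55 CPM in WT TAC libraries. Ikbke rose by 2.61 ± 0.51, adjusted p = 0.000489. Nlrc3 averaged 18.1 ± 6.35 CPM in KO TAC, against 8.1 ± 4.88 CPM in WT TAC (log2 fold change 1.13 ± 0.32, adjusted p = 0.0102), and its libraries overlapped. The falls of Irf9, Rnaseh2c and Tmed2 (-0.28 ± 0.08, -0.69 ± 0.21 and -0.34 ± 0.11) each lost their call in at least 1 refit without a single TAC library, and without KO TAC 353 the list had 5 falls. With the exon length offset the calls of Rnaseh2c (-0.37, adjusted p = 0.203) and Tmed2 (-0.21, adjusted p = 0.155) were lost. Limma voom and the fit of the TAC libraries alone each gave 4 rises in the list.

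Interferon-stimulated genes were lower more often than higher. Of 73 tested, 35 fell and 5 rose, with a median of -0.32. Rsad2 (viperin), an antiviral enzyme of the endoplasmic reticulum, had 137, 217, 182 and 195 CPM in KO TAC libraries, against 350.2, 306, 322, 322 and 317 CPM in WT TAC libraries. Rsad2 fell by 0.83 ± 0.11, adjusted p = 7.41e-06. Gbp2, a guanylate-binding GTPase, had 104, 113, 122 and 158 CPM in KO TAC libraries, against 208, 179, 182, 186 and 231 CPM in WT TAC libraries. The change in Gbp2 was -0.67 ± 0.11, adjusted p = 5.7e-05. Ifit3 and Ifit1, which bind foreign RNA or partner with such proteins, fell by 0.70 ± 0.13 and 0.57 ± 0.13, and the membrane restriction factor gene Bst2 (tetherin) fell by 0.61 ± 0.12 to 62.1 ± 14.5 CPM in KO TAC, against 94.1 ± 7.18 CPM in WT TAC. The ubiquitin-like modifier gene Isg15 averaged 26.6 ± 5.92 CPM in KO TAC, against 36.1 ± 3.69 CPM in WT TAC (log2 fold change -0.45 ± 0.15, adjusted p = 0.0265). That call was lost without KO TAC 351, 352 or 353 and without WT TAC 134 or 136. It was also lost with the exon length offset (-0.14, adjusted p = 0.517), as was that of Bst2 (-0.31, adjusted p = 0.078).

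Genes of the immunoproteasome and of antigen presentation fell, in part the same genes. Psmb8, Psmb9, Psmb10 and Tap1 are also in the interferon-stimulated list, so their falls are counted there already. Psmb8, Psmb9 and Psmb10, which encode the catalytic subunits of the immunoproteasome, fell by 0.97 ± 0.13, 0.99 ± 0.13 and 0.80 ± 0.11, and Psmb9 had 28.9, 24.8, 26 and 39.2 CPM in KO TAC libraries, against 62.3, 55.6, 61.4, 52.8 and 59.9 CPM in WT TAC libraries. The highest KO TAC library in Psmb8 was KO TAC 354, with 72.4 CPM, and the other KO TAC libraries had 40.7 to 44.6. Of 17 tested genes of MHC class I and its peptide loading, 12 fell and none rose, with a median of -0.44. H2-D1, a classical class I heavy chain, had 1133, 1160, 1177 and 1392 CPM in KO TAC libraries, against 1932, 1665, 1743, 1644 and 1939 CPM in WT TAC libraries. H2-D1 fell by 0.55 ± 0.09, adjusted p = 6.36e-05. The nonclassical gene H2-T23 fell by 0.75 ± 0.13 and Tapbpl, an editor of the peptide cargo, by 0.81 ± 0.09. Class I genes have near-identical relatives, so their counts are uncertain where a read matched more than 1 gene. The constitutive proteasome subunits gave 7 falls and 1 rise among 26 genes, with a median of -0.13; with an offset for exon length these were 0 falls and 6 rises. Without KO TAC 352 there were 2 falls, and without WT TAC 134, 136 or 137 there were 4. Without KO TAC 351, KO TAC 352 or WT TAC 134 no subunit rose.

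The 5 interferon-stimulated genes that rose were Xaf1, Ifi27l2a, Eif2ak2, Pml and Lgals3bp. Xaf1, a pro-apoptotic partner of XIAP, had 46.1, 135, 131 and 124 CPM in KO TAC libraries, against 56.9, 61.2, 55.7, 53.2 and 63.6 CPM in WT TAC libraries (log2 fold change 0.90 ± 0.19, adjusted p = 0.00113), so KO TAC 351 lay below every WT TAC library and the other 3 KO TAC libraries above them. Ifi27l2a averaged 15.5 ± 3.26 CPM in KO TAC, against 6.89 ± 2.03 CPM in WT TAC (1.16 ± 0.28), and Eif2ak2, the kinase PKR, 75.6 ± 4.19 CPM in KO TAC, against 61.6 ± 7.3 CPM in WT TAC (0.29 ± 0.09). The call of Pml (0.33 ± 0.09) was lost with the exon length offset (0.22, adjusted p = 0.0614).

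Interferon-stimulated promoters are marked by the interferon-stimulated response element (ISRE), searched on both strands as a pair of GAAA with any 2 bases between them. It was present in 28 of 55 promoters of listed interferon-stimulated genes tested (50.9%), in 331 of 8843 of all genes tested (3.74%), in 67 of 1344 genes lower in KO TAC (4.99%) and in 42 of 1295 genes higher (3.24%). The windows below show the match in capitals with 15 bases on either side, from 5 genes that fell; a run in capitals that starts with TTTC is the motif read on the opposite strand.
Rsad2 (chr12:26456548-26456587, minus strand): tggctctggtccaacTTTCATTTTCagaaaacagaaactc
Gbp2 (chr3:142620589-142620628, plus strand): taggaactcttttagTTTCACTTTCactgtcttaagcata
Ifit3 (chr19:34583392-34583431, plus strand): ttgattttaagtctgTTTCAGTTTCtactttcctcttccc
Ifitm2 (chr7:140955983-140956022, minus strand): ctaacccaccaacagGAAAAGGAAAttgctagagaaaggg
Igtp (chr11:58199507-58199546, plus strand): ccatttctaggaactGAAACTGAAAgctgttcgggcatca
Ifitm2, which encodes a membrane protein that blocks viral entry, fell by 0.61 ± 0.09 to 147 ± 11 CPM in KO TAC, against 226 ± 24.1 CPM in WT TAC, and its log2 fold change was -0.30 with the exon length offset. Igtp, an immunity-related GTPase, fell by 0.83 ± 0.15 to 52.3 ± 11.5 CPM in KO TAC, against 92.4 ± 19.7 CPM in WT TAC.

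Genes of NF-kappaB signalling and chemokines rose more often than they fell. Of 26 tested, 11 rose and 1 fell, with a median of 0.30. The fall was lost in 8 refits without a single library. Icam1, an adhesion receptor for leukocytes, had 137, 127, 130.4 and 206 CPM in KO TAC libraries, against 90.6, 86.7, 95, 96.3 and 105 CPM in WT TAC libraries. The change in Icam1 was 0.66 ± 0.12, adjusted p = 0.000184. Vcam1, a receptor of the same kind, rose by 0.54 ± 0.14 and Sele (E-selectin), on which leukocytes roll, by 1.99 ± 0.48 from a low level (6.24 ± 2.27 CPM in KO TAC, against 1.54 ± 0.451 CPM in WT TAC). Ccl2, which attracts monocytes, had 5.18, 3.36, 4.81 and 11.3 CPM in KO TAC libraries, against 1.2, 0.802, 1.13, 0.909 and 2.34 CPM in WT TAC libraries. Ccl2 rose by 2.30 ± 0.41, adjusted p = 0.000188. KO TAC 354 was the highest library in Icam1, Vcam1 and Ccl2.

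**Figure D3:**
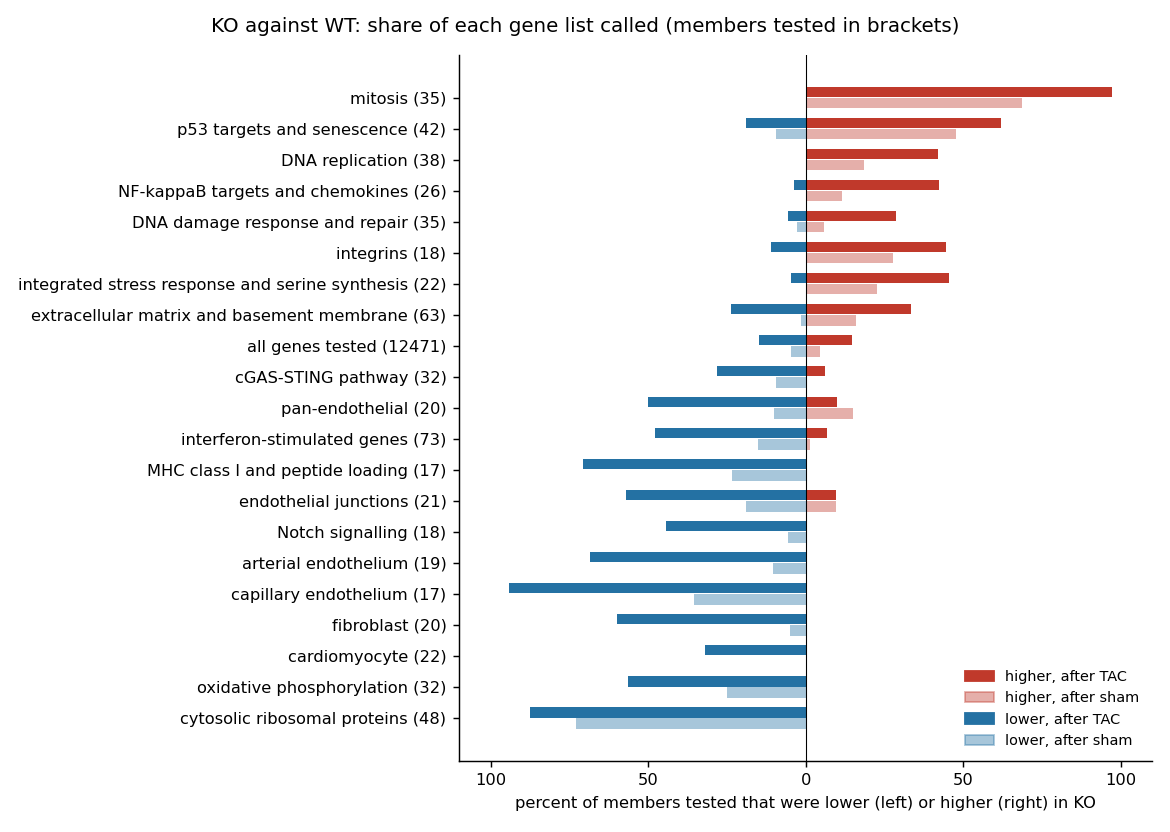
Horizontal bars give, for all genes tested and for a selection of the gene lists, the percent of tested members that were lower (left) or higher (right) in KO, dark for KO TAC against WT TAC and pale for KO sham against WT sham, with the number of members tested in brackets. Among the lists drawn, mitosis (34 of 35) and p53 target and senescence genes (26 of 42) extend furthest to the right after TAC. Capillary genes (16 of 17) and ribosomal proteins (42 of 48) extend furthest to the left. Of all genes, 14.8% were higher and 15.0% lower after TAC.

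Transcripts typical of heart capillaries fell together. Of 17 capillary marker genes tested, 16 fell and none rose. The median of the 17 log2 fold changes was -0.97, and the gene left was the transcription factor gene Meox2 (-0.03 ± 0.07, adjusted p = 0.792). Their levels summed to 12089 to 15111 CPM in KO TAC libraries and 21230 to 26831 CPM in WT TAC libraries. Car4, a carbonic anhydrase on the capillary surface, had 43.1, 26.6, 27.2 and 41.6 CPM in KO TAC libraries, against 167, 143, 199.8, 137 and 170.2 CPM in WT TAC libraries. The change in Car4 was -2.24 ± 0.15, adjusted p = 4.12e-10. Aqp1, a water channel, had 1514, 959.7, 786 and 1795 CPM in KO TAC libraries, against 3859, 3824, 5121, 4336 and 4401 CPM in WT TAC libraries. Aqp1 fell by 1.77 ± 0.19, adjusted p = 4e-07. KO TAC 354 and 351 stood above the other KO TAC libraries in both, and no KO TAC library reached a WT TAC library.

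The capillary genes of fatty acid handling were among them. Cd36, the fatty acid receptor, had 3359, 2960, 2731 and 3807 CPM in KO TAC libraries, against 6716, 5456, 7233, 6701 and 6598 CPM in WT TAC libraries. The change in Cd36 was -1.03 ± 0.09, adjusted p = 2.67e-08. Fabp4, a fatty acid chaperone, fell by 0.97 ± 0.12, Lpl, the lipase that frees fatty acids in the capillary lumen, by 1.00 ± 0.15, and Tcf15, a capillary transcription factor that drives fatty acid uptake, by 1.06 ± 0.13 to 45.7 ± 11.9 CPM in KO TAC, against 95.4 ± 11.1 CPM in WT TAC. Gpihbp1, which holds the lipase on the capillary wall, fell by 0.49 ± 0.11, a call lost with the exon length offset (-0.20, adjusted p = 0.172). Of 31 genes of fatty acid uptake and oxidation, 15 fell and 3 rose. Apln, counted there as a regulator of uptake, had the largest rise.

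Apln encodes apelin, a ligand made by endothelial tip cells, and had 604, 632, 613 and 458 CPM in KO TAC libraries, against 102, 92.3, 71.1, 73.4 and 62.3 CPM in WT TAC libraries. Apln rose by 2.84 ± 0.14, adjusted p = 5.31e-12. Its receptor gene Aplnr, which marks venous and capillary cells, had 794, 880.5, 745 and 457 CPM in KO TAC libraries, against 1370, 1171, 1051, 1267 and 1004 CPM in WT TAC libraries (log2 fold change -0.70 ± 0.15, adjusted p = 0.00137), so ligand and receptor moved in opposite directions. Cxcr4, a chemokine receptor of tip and arterial cells, fell to 59.6 ± 11.2 CPM in KO TAC, against 183 ± 42.1 CPM in WT TAC (-1.61 ± 0.15), and its ligand gene Cxcl12 fell by 0.42 ± 0.08. Of 36 genes of tip cells and angiogenesis tested, 11 rose and 16 fell.

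Pan-endothelial genes divided. Of 20 tested, 10 fell and 2 rose, with a median of -0.22. Tek, the angiopoietin receptor TIE2, had 373, 384, 376 and 403 CPM in KO TAC libraries, against 758, 736, 798, 736 and 784 CPM in WT TAC libraries. The change in Tek was -0.99 ± 0.07, adjusted p = 4.08e-10. Its partner receptor Tie1 fell by 0.64 ± 0.07, and the VEGF receptor genes Kdr and Flt1 fell by 0.47 ± 0.06 and 0.52 ± 0.08. Pecam1 rose by 0.19 ± 0.06, while Cdh5 (0.06 ± 0.06, adjusted p = 0.506) and the transcription factor gene Erg (-0.05 ± 0.07, adjusted p = 0.624) did not pass the test. Arterial genes fell in 13 of 19 cases and rose in none. Refits without KO TAC 352, WT TAC 135, KO sham 348, KO sham 350 or both of these sham libraries gave 1 rise. DESeq2, limma voom, RLE scaling, the filter of 5 CPM in 3 libraries and the fit of the TAC libraries alone also gave 1. The arterial genes that fell included the Notch ligand gene Dll4, with 441, 383, 389.9 and 487 CPM in KO TAC libraries, against 671, 648, 678, 674 and 682 CPM in WT TAC libraries (log2 fold change -0.66 ± 0.11, adjusted p = 6.34e-05), the ligand gene Efnb2 (-0.42 ± 0.07) and the connexin genes Gja5 and Gja4 (-0.63 ± 0.15 and -0.68 ± 0.15). Of 18 Notch pathway genes, 8 fell and none rose, with 4 or 5 falls without KO TAC 352, KO TAC 353 or WT TAC 138. Of 16 venous genes, 7 rose and 4 fell, and Plvap, a fenestral diaphragm protein, rose by 1.10 ± 0.26 (28 ± 8.95 CPM in KO TAC, against 13.1 ± 3.23 CPM in WT TAC), with KO TAC 354 inside the WT TAC range.

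Endothelial junction genes fell in 12 of 21 cases and rose in 2. Jam2, a junctional adhesion molecule through which leukocytes pass, had 569.7, 523, 465 and 536 CPM in KO TAC libraries, against 1170, 1110, 1261, 1228 and 1270 CPM in WT TAC libraries. The change in Jam2 was -1.21 ± 0.08, adjusted p = 3.65e-10, and Jam3, its binding partner, fell by 0.89 ± 0.10. Ctnnb1 (beta-catenin), which anchors VE-cadherin, fell by 0.55 ± 0.06 to 1084 ± 45 CPM in KO TAC, against 1587 ± 104 CPM in WT TAC. Thbd (thrombomodulin), which turns thrombin into an anticoagulant, fell to 679.9 ± 49.5 CPM in KO TAC, against 1320 ± 108 CPM in WT TAC (-0.96 ± 0.08). Plau, which encodes a plasminogen activator, rose by 1.34 ± 0.14, and Ednrb, the endothelin B receptor that clears endothelin, fell by 1.17 ± 0.12.

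Matrix genes moved both ways. Of 63 tested, 21 rose and 15 fell, with a median of 0.01, against 14.8% of all genes higher and 15.0% lower. Fn1 (fibronectin) had 1037, 889, 962 and 938 CPM in KO TAC libraries, against 384, 428, 459, 342 and 492 CPM in WT TAC libraries. Fn1 rose by 1.18 ± 0.10, adjusted p = 2.65e-08. Nid2, a basement membrane linker, rose by 1.26 ± 0.10, Col18a1, a basement membrane collagen, by 0.99 ± 0.10, and the matricellular gene Tnc, which appears in wounds, had 30.9, 43.5, 33.9 and 34.9 CPM in KO TAC libraries, against 7.54, 6.62, 4.89, 7 and 8.8 CPM in WT TAC libraries. The change in Tnc was 2.37 ± 0.19, adjusted p = 9.97e-09. The interstitial collagen gene Col1a1 and the proteoglycan gene Dcn, both made chiefly by fibroblasts, fell to 20.9 ± 6.87 CPM in KO TAC, against 46.1 ± 2.58 CPM in WT TAC and to 36 ± 10.3 CPM in KO TAC, against 83.7 ± 20.9 CPM in WT TAC. With an offset for exon length, which lowers the fold changes of long genes, 16 matrix genes rose and 16 fell. Without KO TAC 354, 7 fell in place of 15.

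Markers of other cells of the heart moved with the genotype after TAC as well. Of 20 fibroblast markers, 12 fell and none rose (7 fell without KO TAC 354), and their levels summed to 872 to 930.1 CPM in KO TAC libraries and 1331 to 1735 CPM in WT TAC libraries; Pdgfra, the defining receptor, had 8.69, 7.65, 9.3 and 8.13 CPM in KO TAC libraries, against 28.3, 20, 32.6, 26.2 and 25.7 CPM in WT TAC libraries. Pdgfra fell by 1.65 ± 0.16, adjusted p = 1.58e-07. Cardiomyocyte markers summed to 390.2 to 475 CPM in KO TAC and 526 to 589 CPM in WT TAC, with 7 of 22 tested lower and none higher, among them Ttn (titin, -0.98 ± 0.13, or -1.86 with the exon length offset). Without KO sham 348 and 350, which share the model's estimate of spread, 11 cardiomyocyte markers fell. Pericyte and smooth muscle markers summed to 1013 to 1088 CPM in KO TAC and 857 to 976 CPM in WT TAC. Single markers of this list went both ways: 5 of 17 tested rose, 2 were lower, and their median was 0.00. The lower ones numbered 0 without KO TAC 352 and 1 with the exon length offset. Those that rose included the contractile genes Tagln (1.85 ± 0.31) and Myh11 (1.78 ± 0.31), with levels between 0.909 and 18.7 CPM in the TAC libraries. The part of these cells in the matrix, capillary and other results was not tested. Capillary, fibroblast and cardiomyocyte sums were all lower in KO TAC, without overlap between the groups.

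Genes of TGF-beta and BMP signalling and of mesenchymal transition gave 10 rises and 8 falls among 36. The shares over all genes tested were 14.8% and 15.0%. Bmp2, a BMP ligand, had 15.8, 25.2, 32.1 and 12.5 CPM in KO TAC libraries, against 4.56, 2.47, 4.44, 3.82 and 3.16 CPM in WT TAC libraries. Bmp2 rose by 2.53 ± 0.37, adjusted p = 2.08e-05, and Smad3, a TGF-beta signal transducer, rose by 1.38 ± 0.21. Id3, a transcriptional target of BMP signals, had 296, 227, 248 and 364 CPM in KO TAC libraries, against 556, 397, 530.4, 488 and 580.1 CPM in WT TAC libraries (log2 fold change -0.85 ± 0.12, adjusted p = 1.26e-05), against the direction of Bmp2. The filament gene Vim (vimentin) rose by 0.69 ± 0.10. Of 18 integrin genes, 8 rose and 2 fell, with Itga2, a collagen receptor subunit, at 1.89 ± 0.26 and Itgb5 at -1.03 ± 0.18. With the exon length offset 5 rose and 3 fell, and without KO TAC 352 or 353 there was 1 fall.

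The number of exonic bases of a gene moved with the difference between genotypes. Across the 12471 genes the Spearman correlation of log2 fold change with exon length was 0.31, given as a description since genes share libraries. In the decile of genes with the shortest exons (median 834 bases) 3.28% were higher and 24.6% lower in KO TAC. In the decile with the longest (median 7792 bases) 43.3% were higher and 5.37% lower. Within libraries, log2 CPM changed by 0.041 to 0.098 per doubling of length in KO TAC and by -0.070 to -0.023 in WT TAC relative to the mean of the TAC libraries, so the groups did not overlap. The sham libraries showed the relation too, with 0.029 to 0.154 in KO sham and -0.085 to -0.021 in WT sham. The Spearman correlation after sham was 0.27. A refit with a smooth offset for length in each library, added after seeing the data, called 3093 genes, 1589 higher and 1504 lower; 2612 were called in the same direction by both fits.

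**Figure D4:**
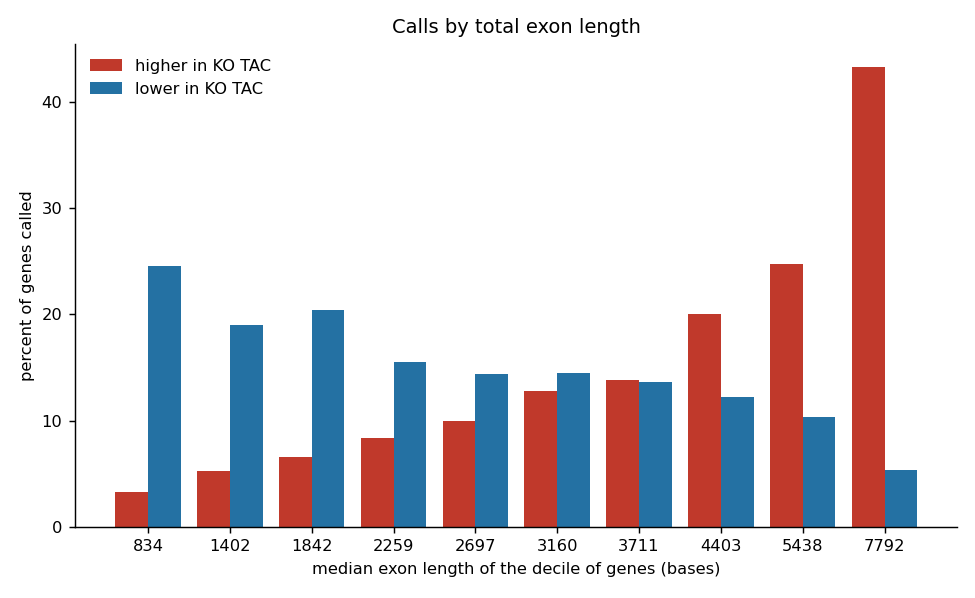
Bars give the percent of genes called higher (red) and lower (blue) in KO TAC for each decile of the genes tested, ordered by total exon length, with the median length in bases on the horizontal axis. The share called higher runs from 3.28% in the shortest decile to 43.3% in the longest, and the share called lower from 24.6% to 5.37%.

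The short genes of ribosomes and mitochondria lay on the low side of that relation. Of 48 cytosolic ribosomal protein genes, with a median exon length of 722 bases, 42 fell and none rose (median -0.59); with the length offset 30 fell and 1 rose. Rps14, a small-subunit protein, had 203, 184, 181 and 191 CPM in KO TAC libraries, against 401, 309, 383, 449 and 367 CPM in WT TAC libraries. The change in Rps14 was -1.01 ± 0.09, adjusted p = 6.07e-08. Of 32 genes of oxidative phosphorylation 18 fell and none rose (median -0.32), but 5 fell with the offset. Cox4i1, a cytochrome oxidase subunit, fell by 0.66 ± 0.11 to 69.1 ± 5.65 CPM in KO TAC, against 109 ± 9.88 CPM in WT TAC, and its log2 fold change was -0.34 with the offset. For the lists above, the fit with the offset gave 34 mitosis genes higher, and 26 p53 target and senescence genes higher and 6 lower. It gave 13 capillary genes lower, 4 interferon-stimulated genes higher and 29 lower, and 9 MHC class I genes lower. The nuclear noncoding RNA Malat1 had 18190, 18955, 19703 and 17504 CPM in KO TAC libraries, against 8693, 13710, 8228, 7900 and 9126 CPM in WT TAC libraries. Malat1 rose by 0.96 ± 0.11, adjusted p = 1.46e-06.

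Amino acid and stress genes made a smaller group, set beside 14.8% of all genes tested that rose and 15.0% that fell. Of 22 genes of the integrated stress response and serine synthesis, 10 rose and 1 fell, with 2 falls without KO TAC 351 or KO TAC 354 and 3 with limma voom. Those that rose included the amino acid transporter gene Slc7a5, with 45.5, 42, 36.6 and 48.1 CPM in KO TAC libraries, against 21.2, 16.6, 18.6, 15.5 and 15 CPM in WT TAC libraries (log2 fold change 1.30 ± 0.15, adjusted p = 1.34e-06), the serine synthesis gene Psat1 (1.46 ± 0.27) and the mitochondrial folate gene Mthfd2 (1.73 ± 0.36). Of 20 genes of the unfolded protein response, 8 fell and 3 rose, with 5 falls and 1 rise with the length offset and 5 falls without KO TAC 351 or 353; Herpud1 gave -0.64 ± 0.10. Of 30 autophagy and lysosome genes, 13 fell and none rose, among them the protease gene Ctsl (-0.88 ± 0.09) and Map1lc3b (-0.51 ± 0.08), which encodes the autophagosome protein LC3B.

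Among 17 circadian clock genes 6 rose and none fell, while limma voom gave 10 rises and 1 fall. Dbp, an output of the clock, had 7.81, 6.34, 11.8 and 29.4 CPM in KO TAC libraries, against 2.72, 2.81, 2.63, 3.45 and 6.32 CPM in WT TAC libraries. The change in Dbp was 1.96 ± 0.41, adjusted p = 0.000892, and Per2, a repressor of it, had 19.1, 11.2, 11.6 and 44.5 CPM in KO TAC libraries, against 7.41, 5.21, 8.2, 6.91 and 9.62 CPM in WT TAC libraries. The change in Per2 was 1.52 ± 0.35, adjusted p = 0.00235. KO TAC 354 was far above the other KO TAC libraries in both, and without it the log2 fold changes were 1.31 for Dbp and 0.93 for Per2, still past the threshold. The lowest Dbp level of KO TAC lay just above the highest of WT TAC. The labels do not give the hour at which hearts were taken.

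The genes with the largest changes included several outside these lists. Cyp1a1, a monooxygenase induced by the aryl hydrocarbon receptor, had 1 to 4 counts in KO TAC libraries and 61 to 203 in WT TAC libraries. Scaled to the summed library totals, its summed count was 37.6 times higher in WT TAC (95% exact interval 20.3 to 78.8). Ahr, which encodes that receptor, had 56.5, 51.1, 52.7 and 50.5 CPM in KO TAC libraries, against 147, 142, 168, 163 and 144 CPM in WT TAC libraries. Ahr fell by 1.54 ± 0.10, adjusted p = 3.4e-10. Of 8 tested members of the list of aryl hydrocarbon receptor targets, 3 fell, 1 rose and 4 did not pass the test. Klra9, an inhibitory receptor of the Ly49 family, fell to 5.83 ± 2.57 CPM in KO TAC, against 40.6 ± 8.55 CPM in WT TAC (-2.82 ± 0.23), and its relative Klra10 fell by 2.66 ± 0.76; the family has near-identical copies, so these counts are uncertain. The remaining large falls included Fmo2, a flavin monooxygenase, at -1.83 ± 0.15, Adh1, an alcohol dehydrogenase that also oxidises retinol, at -1.87 ± 0.26, Apoe, an apolipoprotein, at -1.70 ± 0.21, and Prg4 (lubricin) at -1.73 ± 0.16.

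Large rises included Fat1, a giant cadherin, with 126, 165, 168 and 122 CPM in KO TAC libraries, against 17, 19.8, 24.8, 21.2 and 19.1 CPM in WT TAC libraries. Fat1 rose by 2.83 ± 0.17, adjusted p = 6.91e-11, and Nav2, a guidance protein of the cytoskeleton, averaged 199 ± 51.1 CPM in KO TAC, against 29.2 ± 6.25 CPM in WT TAC (2.75 ± 0.15). Fam38b, the older symbol of the mechanosensitive channel gene Piezo2, had 50.4, 100.2, 79.5 and 23.2 CPM in KO TAC libraries, against 6.27, 10.2, 6.84, 7.45 and 3.71 CPM in WT TAC libraries (log2 fold change 3.17 ± 0.29, adjusted p = 6.58e-08), with the KO TAC libraries spread widely. Cpt1c, a neuronal relative of the carnitine palmitoyltransferases, rose by 3.42 ± 0.26, Sulf2, which trims heparan sulfate, by 2.83 ± 0.19, Slc19a2, a thiamine transporter, by 2.54 ± 0.15, and Ltc4s, the leukotriene C4 synthase, by 2.85 ± 0.30. Exoc4, a subunit of the exocyst that docks vesicles, had 226, 234, 239.8 and 237 CPM in KO TAC libraries, against 90.6, 100.3, 89.8, 90.5 and 99.5 CPM in WT TAC libraries. The change in Exoc4 was 1.32 ± 0.08, adjusted p = 2.95e-10. Mlec, a lectin of the endoplasmic reticulum, fell to 89 ± 9.48 CPM in KO TAC, against 201 ± 5.08 CPM in WT TAC (-1.18 ± 0.07).

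Called genes of 1 direction also lay side by side. Runs of at least 4 neighbouring tested genes called the same way numbered 32, 15 higher and 17 lower. The longest, with 20 genes from Pcdhga3 to Pcdhgc5 on chromosome 18 (37674335 to 37841872 on mm10), held the gamma protocadherins, adhesion proteins that share constant exons; all 20 rose, from 0.49 in Pcdhgb2 to 2.01 in Pcdhgc5, and Pcdhgc3 had 196 ± 12.8 CPM in KO TAC, against 102 ± 8.09 CPM in WT TAC. Reads that overlap several genes were not counted, per the file headers, so reads of the shared exons do not enter these values. A further run of 7 beta protocadherins beside it, Pcdhb16 to Pcdhb22, rose as well, though Pcdhb22 lost its call in 5 refits without a single library. The targeted gene Tmem173 lies on the same chromosome at lower coordinates, given above. A link of these 2 protocadherin runs to the targeted locus was not tested. The percent of genes called ran from 25.3 on chromosome X to 35.7 on chromosome 15, leaving out chromosome Y with none of 5.

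The sham libraries gave the genotype difference without pressure overload. KO sham differed from WT sham in 1148 genes (9.21%), 570 higher (4.57%) and 578 lower (4.63%), with 3 libraries a group; the count was 505 without WT sham 132, 599 without WT sham 133, 742 without KO sham 348 and 2014 without KO sham 349. In 848 genes the calls after TAC and after sham had the same direction, which is 22.8% of the TAC calls and 73.9% of the sham calls, and in 2 genes the direction was opposite. Tmem173 gave -1.28 ± 0.17 after sham (adjusted p = 6.99e-05). Of the p53 target and senescence genes 20 rose and 4 fell after sham, with Zmat3 at 2.37 ± 0.17. Of the mitosis genes 24 rose and none fell. Capillary genes fell in 6 of 17 cases after sham, interferon-stimulated genes in 11 of 73 (with 1 rise) and MHC class I genes in 4 of 17. Fibroblast markers fell in 1 of 20 cases after sham and rose in none, and no cardiomyocyte marker was called among 22.

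The difference between the genotype effects was tested directly and passed in 86 genes (0.690%), 25 positive (0.200%) and 61 negative (0.489%). Of these, 84 were called after TAC and 19 after sham, and in 80 the absolute log2 fold change was larger after TAC. Among capillary and vascular genes, Car4 gave -2.24 ± 0.15 after TAC and -0.93 ± 0.17 after sham (difference -1.31 ± 0.22, adjusted p = 0.0117), Aqp1 -1.77 ± 0.19 and -0.36 ± 0.22 (difference -1.41 ± 0.28, adjusted p = 0.0212), Tek -0.99 ± 0.07 and -0.43 ± 0.08 (difference -0.56 ± 0.10, adjusted p = 0.0138) and Cxcr4 -1.61 ± 0.15 and -0.33 ± 0.18 (difference -1.28 ± 0.24, adjusted p = 0.0153). Of the 17 capillary genes, 4 passed this test. Of the named genes in this test, Car4, Tek, Efna1, Jam2, Fcgrt, Klra9 and Mdm2 kept their call in all 15 refits without 1 library, Cxcr4 in 14 and Aqp1 in 10. The smallest p-values belonged to Efna1, an ephrin ligand (difference -1.13 ± 0.16, adjusted p = 0.00385), and Jam2 (difference -0.85 ± 0.12, adjusted p = 0.00385). Fcgrt, the neonatal Fc receptor that recycles albumin and antibodies, had 72.7, 65.4, 61.1 and 75.3 CPM in KO TAC libraries, against 158, 154, 180.1, 162 and 153 CPM in WT TAC libraries. For Fcgrt the genotype effects differed by -0.82 ± 0.12, adjusted p = 0.00481.

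Of the 42 p53 target and senescence genes 5 passed the test of the difference. They included Gdf15 (difference 1.75 ± 0.40, adjusted p = 0.0437), Phlda3 (0.57 ± 0.13, adjusted p = 0.0488) and Mdm2 (0.80 ± 0.14, adjusted p = 0.0138), each a larger rise after TAC. Gdf15 and Phlda3 kept this call in 3 of 15 refits without 1 library, and Mdm2 in all 15. None of the 35 mitosis genes, the 73 interferon-stimulated genes, the 17 MHC class I genes or the 32 cGAS-STING genes passed it, so their larger counts after TAC are not shown to differ from those after sham. The number of genes that pass depends on single libraries and on the tool: DESeq2 gave 317, and the count was 764 without KO sham 349 and 168 without WT TAC 135. It was 36 to 48 without KO TAC 351, 352 or 353 and 31 to 45 without WT TAC 134, 136, 137 or 138. It was 27 without WT sham 131, 46 without WT sham 132 and 25 without WT sham 133, which had 1362346 counts.

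**Figure D5:**
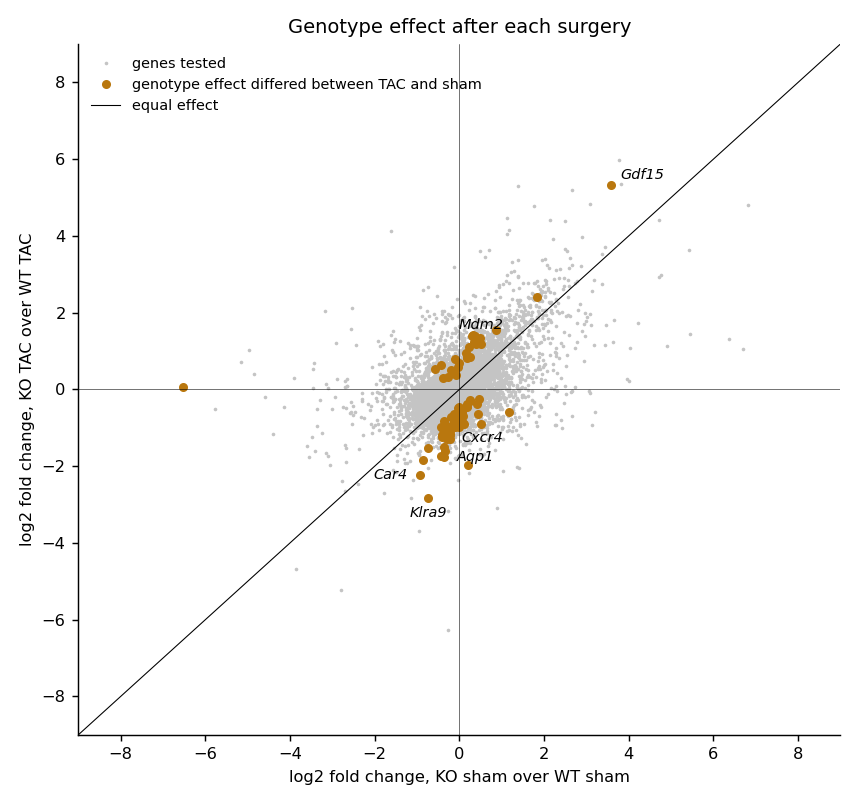
Each point is a gene tested, with the log2 fold change of KO sham over WT sham on the horizontal axis and of KO TAC over WT TAC on the vertical axis; the diagonal marks equal effects and 1 gene lies outside the axes. The 86 genes whose genotype effects differed are in orange, with Gdf15 and Mdm2 above the diagonal and Car4, Aqp1, Cxcr4 and Klra9 below it.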

How the data were processed

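CD45-negative, CD31-positive heart cells of 15 mice were sequenced, and 9 TAC libraries carry the comparison; the 6 sham libraries enter the same model. The build mm10 and the aligner HISAT2 2.1.0 are those of the submitters' processing notes. The authors deposited a table of counts per gene, made per the file headers with featureCounts 1.6.2 and strand setting 2, without an option for multimapping or overlapping reads, so reads shared by near-identical or overlapping genes were not counted. Of 23337 genes, 6512 had no count. Symbols are those of the table, 25 of which a spreadsheet had turned into dates.

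From these counts, genes were kept by filterByExpr (minimum count 10, total 15), scaled by TMM (factors 0.9599 to 1.031) and tested with edgeR 4.0.16 in R 4.3.3, by glmQLFit with 1 coefficient per group on all 15 libraries (11 residual degrees of freedom) and glmQLFTest, two-sided, with Benjamini-Hochberg adjustment over 12471 genes and a threshold of 0.05. Levels are CPM on TMM-scaled totals, and errors are SD for levels (4 KO TAC, 5 WT TAC libraries) and SE for log2 fold changes. Each library is 1 mouse, so p-values measure the spread between these mice. Depth (7134892 to 15670319 counts per TAC library) limits genes of a few counts; counting intervals cover counting error only, since reads are not independent molecules.

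The members and gene lists were chosen with earlier results of these data known. Of 1191 list entries, 1160 matched by symbol, 22 by synonym and 9 not at all; lists are described by counts and medians only. Genes were named by a rule: the 15 largest changes each way (mean of at least 5 CPM, no overlap), the 15 smallest p, up to 4 members a list, the cGAS-STING list, the 10 smallest p for the difference between surgeries and runs of neighbours. Other list members were picked once their values had been seen. Alternatives comprised DESeq2 1.42.0, RLE scaling, no filter, 5 CPM in 3 libraries, limma 3.58.1 voom with quality weights, fits of TAC or sham libraries alone, leaving libraries out and, added after seeing the data, a lowess offset for exon length. Sequences are from RefSeq on GRCm38.p6. The code was tested on simulated data. Some genes are not reported here.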

Additional observations from a re-analysis of the deposited data

Results flagged for a closer look

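Single libraries stood apart from the rest of their group, by Dixon's criterion at 95%, in 25 of 328 pairs of a named gene and a TAC group; chance alone gives such a mark in about 1 in 20 groups. KO TAC 351 stood apart in Gja4 (33.4 CPM, the others 21.4 to 23.4), Meox2 (276 CPM, the others 244 to 247) and Xaf1 (46.1 CPM, the others 124 to 135). KO TAC 352 stood apart in Ccnd1 (1323 CPM, the others 1132 to 1156), Ccng1 (153 CPM, the others 135 to 138), Prc1 (47.6 CPM, the others 32.9 to 35) and Psat1 (16.2 CPM, the others 8.49 to 8.93). KO TAC 352 was also apart in Uhrf1 (30.5 CPM, the others 17.4 to 19). KO TAC 353 stood apart in Itga2 (25.5 CPM, the others 14.6 to 16). KO TAC 354 stood apart in Apln (458 CPM, the others 604 to 632), Bcl2l11 (21.4 CPM, the others 25.3 to 26.1), H2-D1 (1392 CPM, the others 1133 to 1177) and Icam1 (206 CPM, the others 127 to 137). KO TAC 354 was also apart in Lpl (529 CPM, the others 291 to 304), Phlda3 (103 CPM, the others 109 to 109.9) and Psmb8 (72.4 CPM, the others 40.7 to 44.6). WT TAC 134 stood apart in Etv6 (85.8 CPM, the others 91.4 to 93.5). WT TAC 135 stood apart in Bax (37.8 CPM, the others 45.8 to 48.4), Malat1 (13710 CPM, the others 7900 to 9126) and Tmed2 (53.2 CPM, the others 66.5 to 71.2). WT TAC 136 stood apart in Pcdhb16 (31.6 CPM, the others 36.4 to 38). WT TAC 137 stood apart in Bcl2l11 (43.5 CPM, the others 38.6 to 39.7) and Mlec (192 CPM, the others 202 to 204). WT TAC 138 stood apart in Ccl2 (2.34 CPM, the others 0.802 to 1.2) and Dbp (6.32 CPM, the others 2.63 to 3.45). 

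The genotype effect differed between TAC and sham surgery, by the test of that difference, in 20 of 164 named genes. The differences are log2 fold changes, KO over WT after TAC minus KO over WT after sham. They were positive in Gdf15 1.75, Malat1 0.80, Mdm2 0.80 and Phlda3 0.57. They were negative in Ahr -0.81, Aqp1 -1.41, Car4 -1.31, Cd36 -0.64, Cxcr4 -1.28, Ednrb -0.84, Efna1 -1.13, Fcgrt -0.82, Fmo2 -0.98, Jam2 -0.85, Kdr -0.45, Klra9 -2.07, Prg4 -1.29, Tek -0.56, Tie1 -0.51 and Ttn -0.97. The calls of Car4, Efna1, Fcgrt, Jam2, Klra9, Mdm2 and Tek were kept in all 15 refits without 1 library, and those of Cd36, Ednrb, Fmo2, Gdf15, Kdr, Malat1, Phlda3 and Tie1 in at most 4 of 15.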

How the results depend on the processing

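Calls in KO TAC against WT TAC numbered 3715, with 3093 to 5439 under other settings and 2868 to 4539 without 1 library; higher calls ran from 1491 to 2357 and lower ones from 1377 to 2182 in those refits, and limma voom called 2806 genes lower. KO sham against WT sham gave 1148 calls, 463 with limma voom, 289 with the sham libraries alone, and 505 to 2014 without 1 library. The difference between the genotype effects gave 86 calls, 317 with DESeq2, 174 without a low-count filter, and 25 to 764 without 1 library. The cause of these shifts was not tested. No named gene that was called changed sign under any alternative. Meox2, which was not called, gave 0.00 with DESeq2 and with RLE scaling, 0.01 with the 5 CPM filter, 0.06 with the exon length offset and -0.07 to 0.01 without 1 library, and Erg, also not called, gave 0.05 with that offset. The median of the proteasome list was 0.07 with the offset, against -0.13 without. Calls of Bst2, Gpihbp1, Isg15, Pml, Rnaseh2c and Tmed2 were lost with the offset, and 1102 calls over all genes, while 480 were gained, Pcna among them. No paired analysis was possible because KO and WT mice share no replicate numbers. Genes with few counts, such as Cyp1a1 in KO TAC, are limited by depth. All libraries carry 1 batch label, so there is no within-batch value to give beside the pooled ones. Mouse numbers and column order split by genotype, so an effect that went with either cannot be told apart from genotype.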

Other observations

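Gene groups outside the comparisons above moved in part, beside 14.8% of all genes tested that rose and 15.0% that fell. Of 31 endothelial transcription factors tested, 11 fell and 6 rose, with a median log2 fold change of -0.13; Etv6, an ETS repressor, had 129, 151, 165 and 128 CPM in KO TAC libraries, against 85.8, 93.5, 92.8, 93.1 and 91.4 CPM in WT TAC libraries (log2 fold change 0.65 ± 0.09, adjusted p = 1.14e-05), and Prdm1, a repressor best known from lymphocytes, fell by 0.65 ± 0.10. Of 28 regulators of cell death tested, 7 rose and 5 fell, with 3 falls without KO TAC 352 or WT TAC 136, 8 without KO sham 350, with limma voom or in the fit of the TAC libraries alone, and 9 without both KO sham 348 and 350; Apaf1, the scaffold that activates caspases, rose by 0.78 ± 0.12, and Bcl2l11 (Bim), a trigger of mitochondrial death, fell by 0.70 ± 0.10. Of 21 targets and partners of the mechanosensitive factor YAP, 7 rose and 1 fell, among them Myof, a membrane repair protein, with 13.9, 17.7, 26.4 and 10.8 CPM in KO TAC libraries, against 6.71, 4.88, 5.19, 5.45 and 5.09 CPM in WT TAC libraries (log2 fold change 1.65 ± 0.28, adjusted p = 9.45e-05).

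Of 20 glycolysis genes, 7 fell and none rose, with 3 or 4 falls in refits without KO TAC 351, KO TAC 353 or WT TAC 134, 136 or 137. In refits without KO TAC 354 or WT TAC 138, and with limma voom, 1 rose, and 2 rose with the exon length offset.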
